A study of Mus musculus with 8 samples.

Results

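The genes described are 10 mouse transcripts of liver iron handling, chosen by name, but with earlier results of these data known. The set holds the hepcidin genes Hamp and Hamp2, the hepcidin inducer Bmp6 and the transferrin receptors Tfrc and Tfr2. It also holds the carrier transferrin (Trf), the importer Slc11a2, the exporter Slc40a1 and the ferritin subunits Fth1 and Ftl1. These are 10 of the 55401 genes in the count table, and all 10 were among the 17669 genes with enough counts to test. RNA was sequenced from livers of NOD scid gamma (NSG) mice, an immunodeficient strain, that carried a human colorectal cancer line under the skin. Hosts of Colo201, the line the study describes as high in the hormone FGF19, gave 4 libraries, and hosts of HCT116, described as low in FGF19, gave the other 4. The label for sex was male for 2 libraries of each line (Colo201 2L and 2R, HCT116 1L and 1R) and female for the other 2. The lines differ in more than FGF19, no liver of a tumour-free host was analysed here, and the sources used here do not give the ages of the mice, the time after implantation or the size of the tumours. Library names join a number and the letter L or R (2L, 2R, 4L and 4R for Colo201, 1L, 1R, 3L and 3R for HCT116), and nothing says whether L and R came from separate mice. P-values therefore measure the spread between libraries, which may be technical.

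Hepcidin is a peptide hormone that hepatocytes secrete; it binds the iron exporter ferroportin (Slc40a1) on macrophages, enterocytes and hepatocytes and has it degraded, so that less iron enters the plasma. Its gene is switched on by BMP ligands from sinusoidal endothelial cells, acting through SMAD proteins, and by interleukin 6 acting through STAT3. Inside cells, iron regulatory proteins bind a short stem-loop, the iron-responsive element, and block translation of ferritin and ferroportin or protect the messenger of the transferrin receptor from decay when iron is scarce.

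The libraries held 61347603 to 65457482 estimated counts, and the 10 genes together took 2.08 to 3.06% of them. Levels are given as CPM, a gene's counts per 1000000 counts of the library, after TMM scaling of library sizes. The sex labels ran opposite to the sex chromosome transcripts: Xist, expressed from the inactive X chromosome of females, was at 253 to 366 CPM where the label was male and at no more than 0.805 CPM in those labelled female, and Y-linked genes reached 9.06 to 63.5 CPM only in those labelled female. The words "labelled male" and "labelled female" are used throughout for that reason. Of the hepatocyte markers, Alb alone took 7.51 to 12.02% of all counts. Of the lymphocyte markers, Cd3e and Ms4a1 were at 0 in every library. In whole liver, fewer cells of a type and less RNA per cell cannot be told apart.

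Between the lines, 5 of the 10 genes passed the test (edgeR quasi-likelihood, Benjamini-Hochberg adjusted p under 0.05 over all genes tested). Trf and Hamp2 were higher in hosts of Colo201, and Tfrc, Tfr2 and Slc40a1 were lower. Among all genes tested, 2.48% were called higher and 2.30% lower. Hamp, Bmp6, Slc11a2, Fth1 and Ftl1 did not pass. In 4 of the 10 genes, Trf, Tfrc, Tfr2 and Slc40a1, the 4 libraries of one line lay wholly apart from those of the other, as did 12.3% of all genes tested. The median log2 fold change of the 10 genes was -0.11, beside 0.002 over all genes tested. Without the sex label in the model, 0 of the 10 genes were called between the lines (0.877% of all genes), and with L and R of a number summed 0 were (0.0170% of all genes, 1 residual degree of freedom).

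**Figure D1:**
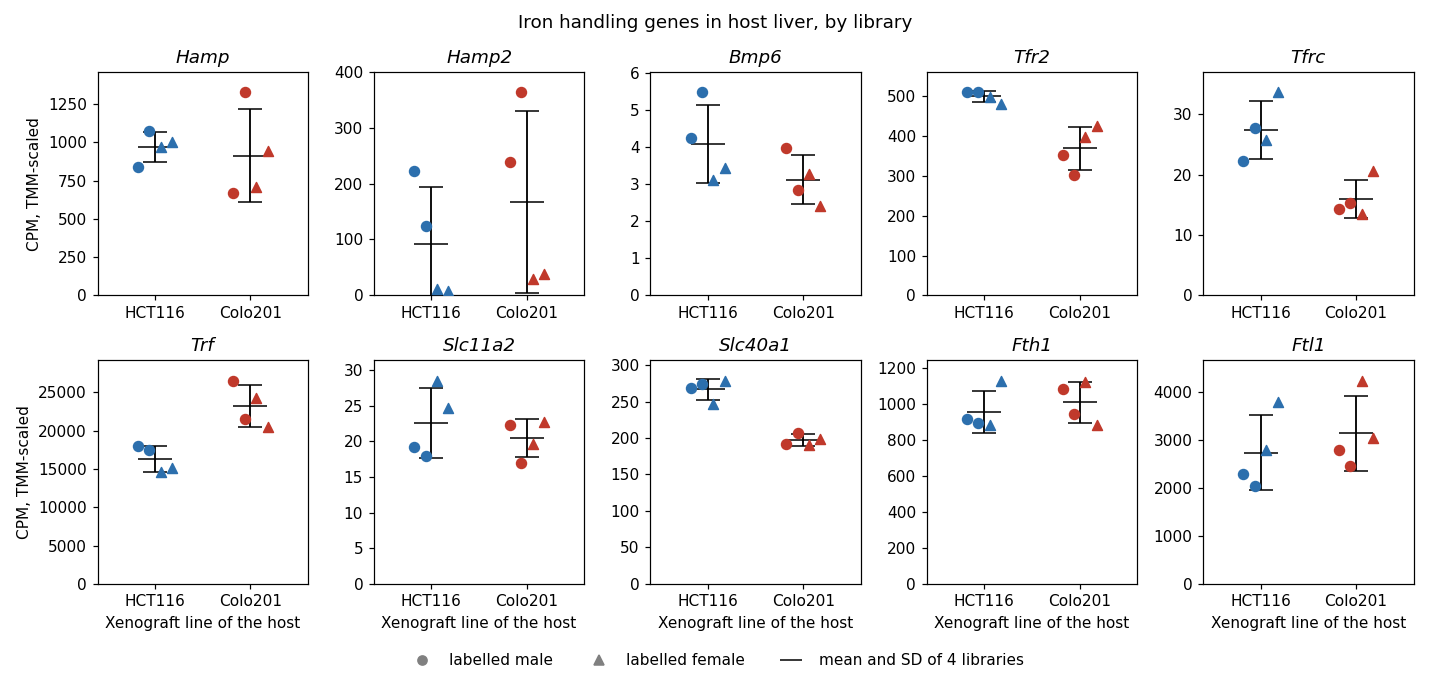
CPM of the 10 genes in each of the 8 libraries (vertical axes from 0, TMM-scaled) by xenograft line (horizontal axes); circles are libraries labelled male, triangles those labelled female, and bars show the mean and SD of 4 libraries. The lines do not overlap for Trf, Tfrc, Tfr2 and Slc40a1, and Hamp2 splits by sex label within each line.

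Per length of transcript, the order of the 10 genes was the following, as mean FPKM ± SD over the 8 libraries in the deposited table. Trf stood first at 5417 ± 1053, above Hamp at 2106 ± 515 and Ftl1 at 1987 ± 471. Hamp and Ftl1 did not differ beyond their spread. Fth1 at 258 ± 22.7 and Hamp2 at 204 ± 209 came next, and the range of Hamp2, 12.8 to 584 FPKM, enclosed that of Fth1. Tfr2 had 91.6 ± 17.9 FPKM and Slc40a1 23.6 ± 4.25. Tfrc at 3.20 ± 1.08 and Slc11a2 at 3.09 ± 0.564 did not differ beyond their spread, and Bmp6 was lowest at 0.843 ± 0.234. The receptor restricted mainly to hepatocytes and erythroid precursors, Tfr2, was thus above the general receptor Tfrc in every library. Fth1 varied least over the 8 libraries, with an SD of 8.77% of its mean FPKM, and Hamp2 varied most, with an SD of 103%.

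Hamp (ENSMUSG00000050440) and Hamp2 (ENSMUSG00000056978) lie close together on the minus strand of chromosome 7 in GRCm38, at chr7:30942368-30944032 and chr7:30922372-30924681. Hamp encodes the hepcidin that controls iron; the role of its mouse paralog Hamp2 is less clear. The stretches upstream of their RefSeq start sites are shown because the genes behaved differently. The limits above are those of GENCODE vM21, whose start of Hamp2 lies further upstream, so the Hamp2 stretch falls inside them. Both run from 170 to 21 bases before the RefSeq start (GRCm38.p6, minus strand), and capitals mark matches to GGCGCC, the letters of the BMP-responsive element, and to TTCNNNGAA, the letters bound by STAT proteins.
Hamp, chr7:30944050-30944199: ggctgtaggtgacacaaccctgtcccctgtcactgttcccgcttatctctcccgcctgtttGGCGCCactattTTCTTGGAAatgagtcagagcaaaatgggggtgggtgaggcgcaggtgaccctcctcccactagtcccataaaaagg
Hamp2, chr7:30924202-30924351: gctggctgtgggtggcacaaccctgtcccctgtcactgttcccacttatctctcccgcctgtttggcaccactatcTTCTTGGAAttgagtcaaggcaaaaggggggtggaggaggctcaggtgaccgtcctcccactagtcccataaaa
Over 247 aligned bases these promoters were 91.9% identical. In the element GGCGCC, counted from 1 at its 5′ end with the base of Hamp first, the aligned Hamp2 stretch carried the substitution G4A, and the STAT letters were present in both. Over both strands, GGCGCC occurred in 9.59% and TTCNNNGAA in 7.02% of the 32851 RefSeq promoter windows, taken over the 250 bases before each start; the motifs do not overlap here. Of the other genes, Tfrc held GGCGCC in 1 of its windows. A match in letters is a description and not a binding site. Promoter entries were found for 7 of the 10 genes, and Trf, Slc40a1 and Slc11a2 had none.

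Hamp did not pass the test between the lines. It stood at 667, 1328, 709 and 945 CPM in Colo201 libraries 2L, 2R, 4L and 4R and at 837, 1075, 972 and 999.9 CPM in HCT116 libraries 1L, 1R, 3L and 3R. The highest library and the 2 lowest all came from hosts of Colo201, and the HCT116 libraries lay within the Colo201 range. Means were 913 ± 303 CPM in Colo201 and 971 ± 99.7 in HCT116 (SD, n = 4 libraries each), a log2 fold change of -0.10 (95% interval -0.57 to 0.38, edgeR adjusted p = 0.84). Leaving out Colo201 2L or 4L turned its sign, to 0.05 and 0.01. Between sex labels Hamp differed by 0.11 (edgeR adjusted p = 0.84).

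Hamp2 followed the sex label within each line. It reached 239 and 364 CPM in Colo201 2L and 2R and 222 and 124 CPM in HCT116 1L and 1R, all labelled male. In the libraries labelled female it was at 29.4 and 38.6 CPM in Colo201 4L and 4R and at 11.7 and 8.41 CPM in HCT116 3L and 3R. The sets labelled male and female did not overlap, and within each label both Colo201 libraries were above both HCT116 libraries. Hamp2 was 12.3-fold higher in libraries labelled male (log2 3.62 ± 0.30 SE, edgeR adjusted p = 0.000425), and it was the only 1 of the 10 genes called between sex labels, where 4.02% of all genes tested were called. That call was kept in all 20 alternative analyses.

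With the sex label in the model, Hamp2 was also higher in hosts of Colo201, 2.42-fold (log2 1.27 ± 0.28 SE, edgeR adjusted p = 0.0408). With the labels pooled its lines overlapped, with 168 ± 163 CPM in Colo201 and 91.5 ± 102 in HCT116 (SD, n = 4 libraries each). The call was kept without Colo201 2L or HCT116 1L and lost without any of the other 6 libraries, with a log2 difference of 1.08 to 1.56 and an adjusted p of 0.0243 to 0.132 over the 8 omissions. It was also lost with library totals as the only scaling and in limma on log2 FPKM. The 2 messengers are 94.6% identical over 410 aligned bases, with an identical run of 87 bases, so counting could split reads between them and each level is uncertain to that extent.

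Hamp2 made up 26.4, 21.5, 21.0 and 10.3% of the summed Hamp and Hamp2 counts in Colo201 2L, Colo201 2R, HCT116 1L and HCT116 1R, labelled male. In the libraries labelled female it made up 3.98 and 3.92% in Colo201 4L and 4R but 1.19 and 0.834% in HCT116 3L and 3R. The sets did not overlap, at 19.8 ± 6.77% and 2.48 ± 1.70% (SD, n = 4 each; exact two-sided permutation p = 0.0286, the smallest that 70 arrangements allow; adjusted over 6 ratio tests p = 0.0857). By line the shares were 13.9 ± 11.7% in Colo201 and 8.33 ± 9.51% in HCT116 (exact permutation p = 0.457, n = 4 each). Unlike the edgeR test, the permutation took no account of the sex label, so the spread by label entered it. Within each label both Colo201 shares were above both HCT116 shares, which was not tested. Each share rests on 47210 to 113994 counts of both genes in a library.

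**Figure D2:**
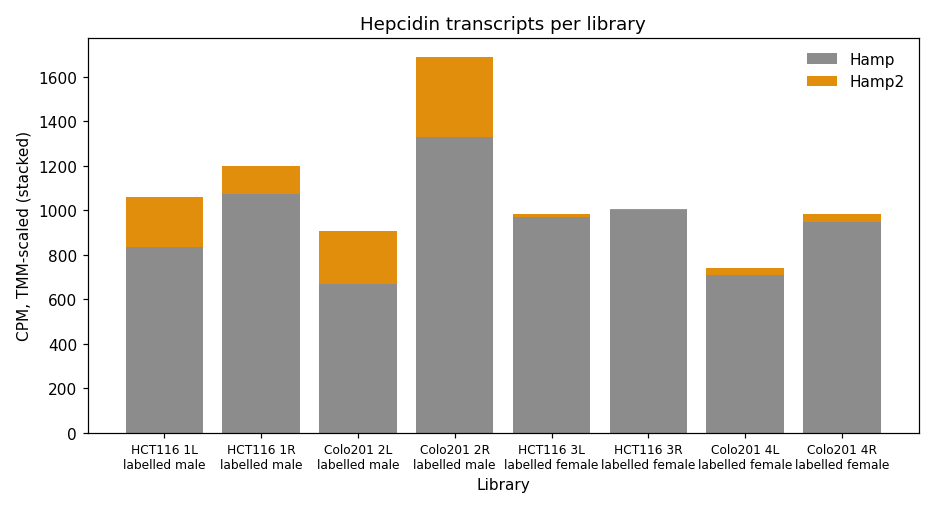
Stacked CPM of Hamp (grey) and Hamp2 (orange) in each library (horizontal axis, with line and sex label; TMM-scaled CPM on the vertical axis). Under the label male Hamp2 reaches 124 to 364 CPM, and under the label female 8.41 to 38.6 CPM, while Hamp shows no such split.

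Bmp6 (ENSMUSG00000039004, chr13:38345107-38500302, plus strand), the ligand by which the endothelium reports iron stores, did not pass between the lines. It was at 3.98, 2.84, 3.27 and 2.42 CPM in Colo201 libraries 2L, 2R, 4L and 4R and at 4.25, 5.49, 3.13 and 3.44 CPM in HCT116 libraries 1L, 1R, 3L and 3R. The lines overlapped, and the 2 highest values were the HCT116 libraries labelled male. The log2 fold change was -0.36 (95% interval -0.81 to 0.08, edgeR adjusted p = 0.33). Between sex labels it was 0.42 (edgeR adjusted p = 0.31). The summed sinusoidal endothelial markers were at 455 to 514 CPM under the label male and at 282 to 384 CPM under the label female. Of these markers, 5 of 12 were called higher in libraries labelled male, beside 346 of all 17669 genes tested. The part of the markers in the values of Bmp6 was not tested. An exon of Bmp6 shares 224 bases with Txndc5 on the opposite strand, which had 102 to 263 CPM before TMM scaling. The strand setting of the counting is not given, so the low values of Bmp6 are uncertain.

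The transferrin receptors were both lower in hosts of Colo201. Tfrc (ENSMUSG00000022797, chr16:32608920-32632794, plus strand), which takes up iron-loaded transferrin in most cells, was at 14.4, 15.4, 13.5 and 20.6 CPM in Colo201 libraries 2L, 2R, 4L and 4R and at 22.4, 27.8, 25.7 and 33.7 CPM in HCT116 libraries 1L, 1R, 3L and 3R. The highest Colo201 library was just under the lowest HCT116 library. Tfrc fell by 0.78 on the log2 scale (SE 0.16), 1.72-fold, from 27.4 ± 4.76 to 15.9 ± 3.20 CPM (SD, n = 4 libraries each; edgeR adjusted p = 0.0320). The call was kept only without Colo201 4R and lost without any of the other 7 libraries, with a log2 difference of -0.91 to -0.67 and an adjusted p of 0.0298 to 0.1 over the 8 omissions. Of the erythroid markers, whose cells are rich in this receptor, 0 of 8 tested were called by edgeR (4 at an unadjusted p under 0.05, 2 called by DESeq2), with a median log2 fold change of 0.54, and their summed level was 672 to 1319 CPM in Colo201 and 561 to 872 CPM in HCT116; their part in the values of Tfrc was not tested.

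The 3′ UTR of Tfrc carries the stem-loops to which iron regulatory proteins bind, shown because they set it apart from Tfr2. GENCODE vM21 transcripts (GRCm38) were searched for a C, a stem of 5 pairs (G with T allowed) and a loop. The loop was CAGTG followed by A, C or T. In Tfrc 4 sites were found, and capitals mark the loop.
Tfrc, chr16:32631225-32631241: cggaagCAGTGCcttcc
Tfrc, chr16:32631604-32631620: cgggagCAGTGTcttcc
Tfrc, chr16:32631669-32631685: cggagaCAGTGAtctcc
Tfrc, chr16:32631716-32631732: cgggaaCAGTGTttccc
No such match was found in Tfr2. Of 58797 protein-coding transcripts, 0.725% held at least 1 match.

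Tfr2 (ENSMUSG00000029716, chr5:137569840-137587481, plus strand), the receptor through which hepatocytes sense iron-loaded transferrin, was at 352, 302, 398 and 426 CPM in Colo201 libraries 2L, 2R, 4L and 4R and at 509, 510.0, 497 and 482 CPM in HCT116 libraries 1L, 1R, 3L and 3R. Every Colo201 library was below every HCT116 library, and the HCT116 libraries lay close together. Tfr2 fell by 0.44 on the log2 scale (SE 0.10), 1.36-fold, from 499.6 ± 13.4 to 369 ± 54.2 CPM (SD, n = 4 libraries each; edgeR adjusted p = 0.0455). The call was lost whichever library was left out, with an adjusted p of 0.0501 to 0.133 and a log2 difference of -0.50 to -0.36. It was also lost when every gene with a count was tested. The log2 ratio of Tfrc to Tfr2 counts was -4.54 ± 0.27 in Colo201 and -4.20 ± 0.28 in HCT116 (SD, n = 4 each), a difference that did not exceed the spread between libraries (exact permutation p = 0.143, adjusted p = 0.286).

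Trf (ENSMUSG00000032554, chr9:103204001-103230444, minus strand) encodes transferrin, the plasma protein that carries iron and is secreted by hepatocytes. It was at 26530, 21560, 24280 and 20470 CPM in Colo201 libraries 2L, 2R, 4L and 4R and at 18030, 17430, 14660 and 15160 CPM in HCT116 libraries 1L, 1R, 3L and 3R. Every Colo201 library was above every HCT116 library. Trf rose by 0.51 on the log2 scale (SE 0.09), 1.43-fold, from 16319 ± 1659 to 23210 ± 2729 CPM (SD, n = 4 libraries each; edgeR adjusted p = 0.0216). As a share of all counts it took 2.05 to 2.51% in Colo201 and 1.48 to 1.82% in HCT116. The call was kept without Colo201 2R or 4R and lost without any of the other 6 libraries, with an adjusted p of 0.0142 to 0.0723 and a log2 difference of 0.44 to 0.58 over the 8 omissions. It was also lost in limma on log2 FPKM (log2 difference 0.47).

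Beside Trf, 2 of 8 hepatocyte markers were called higher in Colo201, Apoa1 (log2 0.47) and Ahsg (0.37), both secreted by hepatocytes. Among all genes tested, 2.48% were called higher. The other 6 markers did not pass, among them Alb, the most abundant secreted protein (log2 0.18, edgeR adjusted p = 0.17). Of the 8 markers, 6 had a log2 fold change above 0 and 2 below, with a median of 0.20. Their summed level was 137500 to 178200 CPM in Colo201 and 117600 to 151600 CPM in HCT116, which overlapped, and its part in the rise of Trf was not tested. Exons of Trf share 2108 of 3320 bases with Gm20425 on the same strand. No entry under that symbol was found in the count table, so whether reads of the shared bases were counted elsewhere is not known.

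Slc40a1 (ENSMUSG00000025993, chr1:45908068-45926523, minus strand) encodes ferroportin, the exporter that hepcidin removes. Colo201 2L, 2R, 4L and 4R had 192, 208, 190.4 and 199 CPM, and HCT116 1L, 1R, 3L and 3R had 268, 274, 247 and 279 CPM. The lines lay wholly apart, with little spread inside each. Slc40a1 fell by 0.44 on the log2 scale (SE 0.07), 1.35-fold, from 267 ± 14.1 to 197 ± 7.73 CPM (SD, n = 4 libraries each; edgeR adjusted p = 0.0200). The call was kept in 4 of the 8 omissions and lost without Colo201 2L, Colo201 4L, HCT116 1L or HCT116 1R, with an adjusted p of 0.0419 to 0.0719 and a log2 difference of -0.47 to -0.40. Between sex labels Slc40a1 differed by 0.04 (95% interval -0.13 to 0.21, edgeR adjusted p = 0.83).

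Kupffer cells, the resident macrophages of liver, are rich in ferroportin. Between the lines 0 of 12 Kupffer cell and macrophage markers were called by edgeR (0 at an unadjusted p under 0.05, 0 by DESeq2), and their summed level was 221 to 618 CPM in Colo201 and 362 to 546 CPM in HCT116. By sex label that sum was 500.2 to 618 CPM under male and 221 to 430 CPM under female, ranges that did not overlap. The part of these cells in the values of Slc40a1 was not tested. The 5′ UTR of Slc40a1 holds 1 match to the stem-loop, on the minus strand, with the loop in capitals.
Slc40a1, chr1:45925471-45925487: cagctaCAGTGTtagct

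Slc11a2 (ENSMUSG00000023030, chr15:100387898-100425072, minus strand) encodes DMT1, which moves iron from endosomes into the cytosol, and it did not pass between the lines. It was at 22.3, 16.97, 19.7 and 22.8 CPM in Colo201 libraries 2L, 2R, 4L and 4R and at 19.3, 18.02, 28.6 and 24.8 CPM in HCT116 libraries 1L, 1R, 3L and 3R. The lines overlapped. The log2 fold change was -0.13 (95% interval -0.43 to 0.18, edgeR adjusted p = 0.64), and between sex labels it was -0.32 (edgeR adjusted p = 0.26).

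Neither of the ferritin subunits, whose mixed shells store iron, passed between the lines. The 5′ UTR of each holds 1 stem-loop, shown because both messengers carry it.
Fth1, chr19:9982738-9982754, plus strand: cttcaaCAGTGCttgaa
Ftl1, chr7:45459785-45459801, minus strand: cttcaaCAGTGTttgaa
Fth1 (ENSMUSG00000024661, chr19:9980598-9985098), the heavy subunit with ferroxidase activity, was at 1087, 944, 1123 and 887 CPM in Colo201 libraries 2L, 2R, 4L and 4R and at 919, 894, 884 and 1132 CPM in HCT116 libraries 1L, 1R, 3L and 3R. The lines overlapped, and HCT116 3R stood far from the other 3 libraries of its line. The log2 fold change was 0.08 (95% interval -0.18 to 0.34, edgeR adjusted p = 0.74).

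Ftl1 (ENSMUSG00000050708, chr7:45457944-45459884), the light subunit, was at 2792, 2456, 4227 and 3034 CPM in Colo201 libraries 2L, 2R, 4L and 4R and at 2294, 2045, 2788 and 3791 CPM in HCT116 libraries 1L, 1R, 3L and 3R. Within each line both libraries labelled female were above both labelled male. Between lines the log2 fold change was 0.21 (95% interval -0.10 to 0.51, edgeR adjusted p = 0.41). Between sex labels it was -0.53 ± 0.13 SE, which did not pass (edgeR adjusted p = 0.0684). It passed with library totals as the only scaling, with DESeq2 and without Colo201 4R. A predicted microRNA gene, Gm22133, lies inside Ftl1 on the same strand over 109 of its 1340 exon bases. It was listed at 277 to 560 CPM before TMM scaling, so counts may have been divided between Gm22133 and Ftl1.

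The log2 ratio of Fth1 to Ftl1 counts compares the subunits within a library. It was -1.36, -1.38, -1.32 and -1.19 in Colo201 2L, Colo201 2R, HCT116 1L and HCT116 1R, labelled male, and -1.91, -1.77, -1.66 and -1.74 in Colo201 4L, Colo201 4R, HCT116 3L and HCT116 3R, labelled female. The ratio was higher in every library labelled male, at -1.31 ± 0.08 against -1.77 ± 0.11 (SD, n = 4 each; exact permutation p = 0.0286, the smallest possible; adjusted p = 0.0857). By line it was -1.61 ± 0.28 in Colo201 and -1.48 ± 0.26 in HCT116 (exact permutation p = 0.486, n = 4 each). That permutation did not hold the sex label fixed, so the spread by label entered it. Within each label both Colo201 libraries were below both HCT116 libraries, which was not tested.

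**Figure D3:**
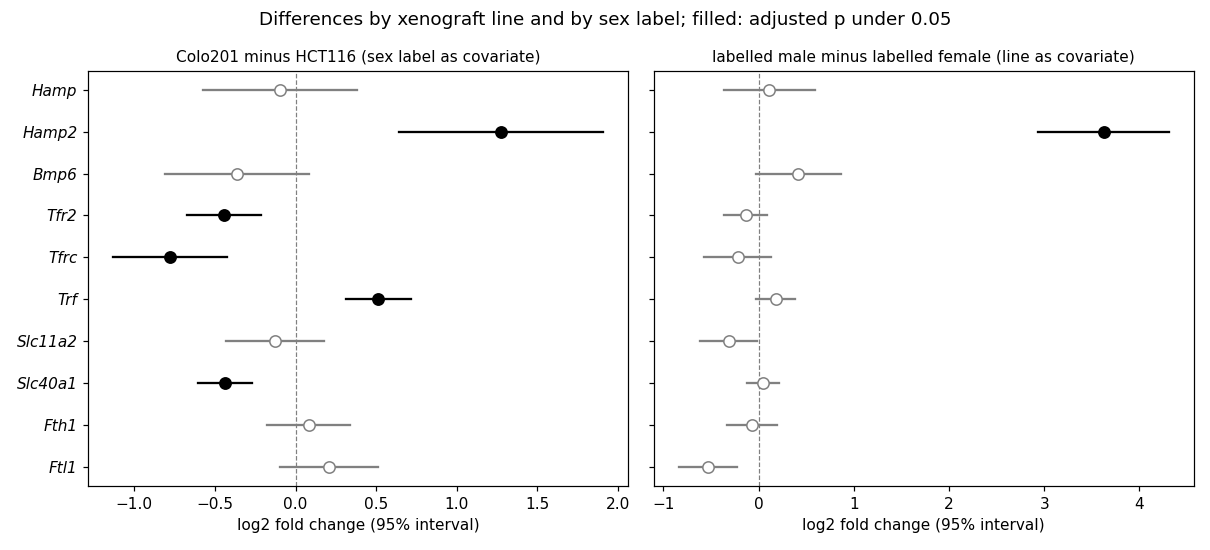
Log2 fold changes of the 10 genes with 95% intervals (horizontal axes) for Colo201 minus HCT116 (left) and labelled male minus labelled female (right), from edgeR; filled points have an adjusted p under 0.05. On the left Hamp2 and Trf lie above 0 and Tfr2, Tfrc and Slc40a1 below; on the right only Hamp2, at 3.62, is filled.

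Each sex label gave its own difference between the lines, from 2 libraries a line. For Tfrc it was -0.76 in libraries labelled male and -0.80 in those labelled female, for Slc40a1 -0.44 and -0.43, and for Trf 0.44 and 0.59. For Tfr2 it was -0.64 and -0.25, and for Hamp2 0.80 and 1.76. The 5 genes called between the lines had the same direction under both labels. They were called on these same 8 libraries, so that is no separate support. Of the genes not called, Ftl1 and Bmp6 also had the same direction under both labels, and Hamp, Slc11a2 and Fth1 did not. Within the label male 0 of the 10 genes were called by edgeR (5 at an unadjusted p under 0.05), where 0.232% of all genes were, and DESeq2 called 2 of them and 4.14% of all genes. Within the label female edgeR called 0 (4 unadjusted), where 0.492% of all genes were, and DESeq2 called 4 of them and 4.44% of all genes. The interaction, fitted in edgeR, called 0 of the 10, where 0.0283% of all genes were called. At an unadjusted p under 0.05 it held 1, Tfr2 (edgeR unadjusted p = 0.0414, adjusted p = 1), and DESeq2 called 0.

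The patterns most like those of 3 of the genes were sought among 11355 other genes with a mean of at least 1 CPM, by Pearson's r of log2 CPM over the 8 libraries. For Hamp they were Nt5dc3 (r = 0.925), Nptn (0.922) and Macrod2 (0.920). For Trf they were Ddt (0.990), Ehd1 (0.989) and Pxdc1 (0.989). For Tfrc they were Nup155 (0.980), Atp2a2 (0.980) and Alms1 (0.975). All values share the 8 libraries and their scaling, and each is among the highest 3 of 11355 coefficients over 8 points, so these are descriptions only.

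Around the 10 genes, 89 others of iron control, transport, storage and use were listed, of which 87 could be tested. Between the lines 3 were higher in Colo201, beside 2.48% of all genes tested, and 6 lower, beside 2.30%, and 78 did not pass. Without the sex label in the model 8 of these 9 lost their call, all but Steap2, and with L and R of a number summed all 9 did. The median log2 fold change of the 87 was -0.03, beside 0.002 over all genes tested. The shares of all genes called, 2.48% higher and 2.30% lower, also stand beside the counts of each list below. Erfe, the hormone of erythroid precursors that lowers hepcidin, and Ftmt, mitochondrial ferritin, were too low to test.

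In the BMP and SMAD arm of hepcidin control, 0 of 15 tested genes were called higher and 2 lower, with a median of 0.05. Smad9, a SMAD of the BMP pathway, fell by 1.45 on the log2 scale (SE 0.16), from 18.9 ± 7.62 CPM in HCT116 to 6.87 ± 1.93 in Colo201 (SD, n = 4 libraries each; edgeR adjusted p = 0.00469). It kept its call whichever library was left out, but lost it without the sex label in the model (adjusted p = 0.0606) and with L and R summed (0.0983). Fgl1, a hepatocyte-secreted protein known to lower hepcidin by binding BMP6, fell by 0.68 (edgeR adjusted p = 0.0448), with overlapping lines, and lost its call in 6 of 8 omissions, being kept only without Colo201 2L or HCT116 1L. The hepcidin co-receptor hemojuvelin (Hjv, listed under its older symbol Hfe2) differed by 0.40 (edgeR adjusted p = 0.11), Hfe by 0.05 (0.92), the protease Tmprss6, which cuts hemojuvelin, by 0.29 (0.15) and the ligand Bmp2 by -0.25 (0.32), none of which passed.

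The BMP-SMAD target genes are transcribed when the pathway that also drives Hamp is active. All 6 had a log2 fold change above 0, with a median of 0.45, and 1 of them passed. Over all genes tested, 8860 lay above 0 and 8809 below, with a median of 0.002. Whether the activity of the pathway differed between the lines was not tested. Id1 stood at 27.7, 54.6, 30.0 and 31.8 CPM in Colo201 libraries 2L, 2R, 4L and 4R and at 16.95, 26.03, 12.98 and 13.92 CPM in HCT116 libraries 1L, 1R, 3L and 3R. The lines did not overlap on this scale but did before TMM scaling, and Id1 rose by 1.07 on the log2 scale (SE 0.22, edgeR adjusted p = 0.0336). Its call was kept only without Colo201 2L and lost without any of the other 7 libraries (log2 0.88 to 1.26). Smad7 differed by 0.20 (edgeR adjusted p = 0.63) and Atoh8 by 0.43 (0.21), and neither passed. Bmp6, Bmp2 and Hamp, by comparison, had log2 fold changes of -0.36, -0.25 and -0.10, none past the threshold.

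In the interleukin 6, STAT3 and acute phase list, 1 of 16 genes was called higher and 2 lower, with a median of -0.16. Il6ra, the receptor chain for interleukin 6, fell by 0.89 on the log2 scale (SE 0.13), from 92.7 ± 21.7 CPM in HCT116 to 50.7 ± 14.96 in Colo201 (SD, n = 4 libraries each; edgeR adjusted p = 0.0112). It kept its call whichever library was left out, but lost it without the sex label in the model (adjusted p = 0.11) and with L and R summed (0.108). Orm2, an acute phase glycoprotein, fell by 1.47 (edgeR adjusted p = 0.0272) and lost its call without Colo201 2L, 2R, 4L or 4R or HCT116 3L. Lcn2, which binds bacterial siderophores and so withholds iron, rose by 1.78 (edgeR adjusted p = 0.0157) and lost its call without HCT116 3L (adjusted p = 0.0615). Both Orm2 and Lcn2 were also higher in libraries labelled male, by 2.09 and 2.06. The lines overlapped for Il6ra, Orm2 and Lcn2 alike.

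In iron and haem uptake and transport, 1 of 19 genes was higher and 1 lower, with a median of -0.02. Steap2, a metalloreductase, fell by 1.75 on the log2 scale (SE 0.20), from 6.62 ± 2.32 CPM in HCT116 to 1.97 ± 0.684 in Colo201 (SD, n = 4 libraries each; edgeR adjusted p = 0.00536). It kept its call whichever library was left out and without the sex label in the model, but lost it with L and R summed (adjusted p = 0.103). Slc48a1, a haem transporter of lysosomes, rose by 0.60 (edgeR adjusted p = 0.0284), with overlapping lines, and was called in 2 of 8 omissions, those of Colo201 4R and HCT116 3R. Scara5, a receptor for ferritin, was 4.77 lower on the log2 scale in libraries labelled male (edgeR adjusted p = 0.00992), and Slc48a1 was 0.55 lower there (0.0347).

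In the remaining lists, Cpox of haem synthesis fell by 0.50 on the log2 scale (edgeR adjusted p = 0.0452), with no overlap of the lines, and was the 1 called of 12 genes of haem synthesis and breakdown; its call was kept only without Colo201 2L. Alas1, the rate-limiting enzyme of haem synthesis, was 1.48 higher in libraries labelled male (edgeR adjusted p = 0.0457). None of 3 ferritin turnover and chaperone genes passed by edgeR (0 unadjusted, 0 by DESeq2); the smallest p were those of Pcbp1 (log2 0.13, unadjusted p = 0.197) and Pcbp2 (-0.15, 0.244). None of 6 iron regulatory proteins and other transcripts with the element passed either (1 unadjusted, 1 by DESeq2), with Ireb2 at -0.18 (edgeR unadjusted p = 0.0620, adjusted p = 0.255). None of 10 iron-sulphur cluster genes passed (3 unadjusted, 0 by DESeq2), with Fdxr at 0.26 (edgeR unadjusted p = 0.0413, adjusted p = 0.210). By sex label, Hjv was 0.71 lower and Fgl1 1.04 higher in libraries labelled male (edgeR adjusted p = 0.0182 and 0.00882). In all, 6 of the 87 genes were called higher and 4 lower there, where 4.02% of all genes tested were called in either direction.

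**Figure D4:**
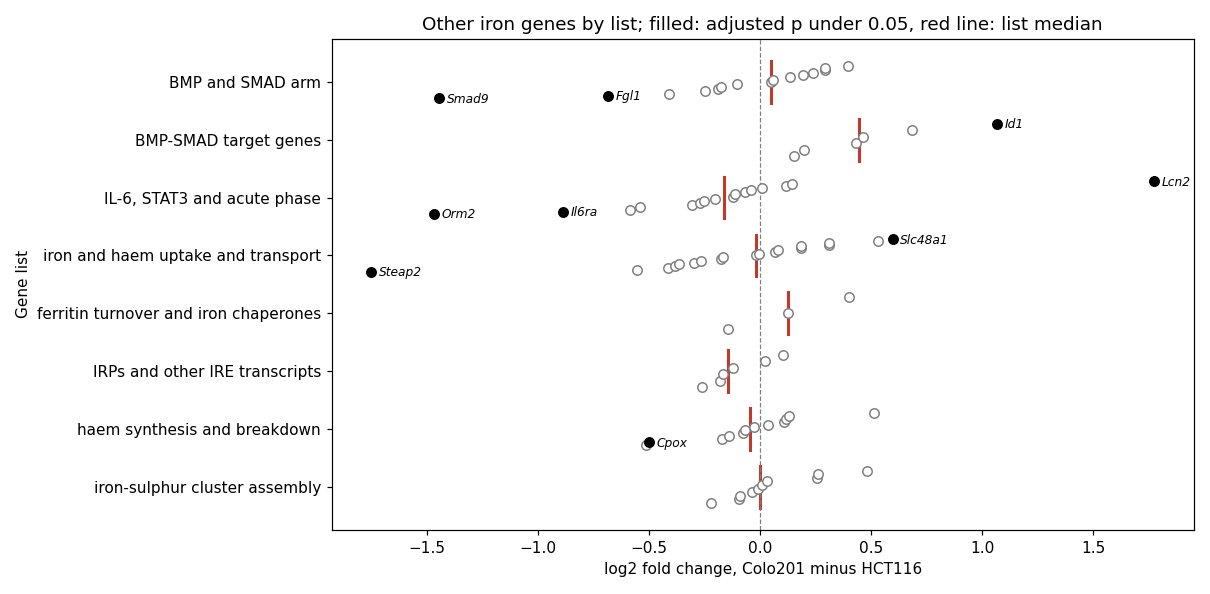
Log2 fold change, Colo201 minus HCT116 (horizontal axis), of each tested gene in 8 lists (vertical axis; points are spread by rank within a list); filled points have an adjusted p under 0.05 and red lines mark list medians. The 6 BMP-SMAD targets all lie above 0, of which 1 is filled, and the 9 filled points are 3 higher and 6 lower genes.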

How the data were processed

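The deposited table gives estimated counts per gene as whole numbers for 8 libraries; the tools named in the submitters' processing notes are HISAT2 and StringTie, the build is GRCm38 (mm10), and the sources used here give no versions, annotation or strand setting. How these counts were made from reads is not stated, and 43.9 to 45.0% of values of 1 to 16 were multiples of 4. FPKM, as the authors deposited them, served for levels between genes and for alternatives. Symbols came from GENCODE vM21 (55141 of 55401 identifiers matched).

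Counts were scaled by TMM, filtered by filterByExpr and tested in R 4.3.3 by the quasi-likelihood test of edgeR 4.0.16 over all genes, with Benjamini-Hochberg adjustment and a threshold of 0.05. Lines were compared with sex label as covariate and sex labels with line (5 residual degrees of freedom). Contrasts within a label came from a fit of the 4 combinations. Ratios of counts were compared by exact permutation, by line without regard to sex label and by sex label without regard to line. Alternatives were other scalings and filters, DESeq2 1.42.0, limma 3.58.1 (voom, and log2 FPKM with a pseudocount of 1 or 0.1), counts divided by 4, no covariate, summed libraries and each library left out. The fit was tested on simulated data. Sequences were aligned with Biopython 1.88.

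The genes and lists were chosen with earlier results of these data known. Named are all 10 genes, listed genes called between lines (otherwise up to 2 with the smallest p), up to 2 per list called between sex labels, Hjv, Hfe, Tmprss6, Bmp2, Id1, Smad7 and Atoh8 in any case, and the 3 genes most like Hamp, Trf and Tfrc. A few genes that this rule selects are not reported here.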

Additional observations from a re-analysis of the deposited data

Results flagged for a closer look

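Fth1 in HCT116 3R was at 1132 CPM, set apart from the other 3 libraries of its line, which were at 884 to 919 CPM. It was the only value so set apart among 52 groups of 4 libraries looked at over the 10 genes and their ratios, where chance alone sets apart about 1 group in 20.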

How the results depend on the processing

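Of the 10 genes, 5 were called between lines; 3 were called in limma on log2 FPKM with either pseudocount, 0 without the covariate (0.877% of all genes called), 0 with the libraries of a title number summed, which leaves 1 residual degree of freedom (0.0170%), and 0 to 3 with 1 library left out. The count was 0 without Colo201 4L or HCT116 1R, 1 without Colo201 2L or HCT116 1L, 3L or 3R, 2 without Colo201 2R and 3 without Colo201 4R; over all genes these fits called 0.924 to 2.92%, against 4.78% with all 8 libraries. The 5 called genes kept their direction in every alternative in which they were tested; Trf is among the 20 most abundant genes and was not tested where those were left out. Between sex labels the count was 1, and 2 with library totals only, with DESeq2 and without Colo201 4R (range 1 to 2), the other gene being Ftl1. Within the labels male and female, where edgeR called 0, DESeq2 called 2 and 4 (4.14 and 4.44% of all genes, against 0.232 and 0.492%). Of the listed genes 9 were called, 15 by DESeq2, which called 13.4% of all genes, and 3 to 7 with 1 library left out. The log2 difference of Hamp was -0.36 to 0.046 over the omissions and turned above 0 without Colo201 2L (0.046) or 4L (0.0092). The log2 ratio of Tfrc to Tfr2 between sex labels, -0.06, was -0.25 to 0.10 over the omissions and turned above 0 without Colo201 2L (0.006) or HCT116 3R (0.10). Causes were not tested. No paired analysis was possible because the lines share no replicate numbers. Bmp6 has the lowest counts of the 10 genes, at 2.42 to 5.49 CPM.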
